A study of Mus musculus with 12 samples.

Results

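The tripartite motif (TRIM) genes were followed in mouse bone-marrow-derived macrophages given interferon gamma (IFNγ). The members are the rows of the deposited expression table that hold a gene symbol starting with Trim and a number. There were 67 such entries with 69 Trim symbols among the table's 46729 entries. Of these, 7 merge a Trim gene with an overlapping gene, and the reads of merged genes cannot be told apart.

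The cells came from C57BL6 mice and were grown from marrow over 10 days with interleukin-3 and L-929 conditioned medium, which supplies the growth factor CSF-1. They were left untreated or received IFNγ at 0.2, 2 or 20 U/ml for 8 h in fresh medium. The label of 20 U lacks a volume and was read as U/ml. There were 12 libraries, 3 in each of the 4 groups, and nothing in the labels ties the 3 to separate animals or cultures. The table gives 1 FPKM value per entry and group (fragments per kilobase of transcript, scaled to library size), so no difference has a replicate check, no test could be made, and the depth is unknown.

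TRIM proteins are mostly ubiquitin ligases, built from a RING domain, B-box domains and a coiled coil, and sorted by the domain at their C-terminal end. The largest group ends in a SPRY domain, which binds other proteins. Many SPRY members act against viruses or tune antiviral signalling in myeloid cells, and a row of them next to Trim5 has expanded in rodents. Interferons act on genes through GAS motifs and, with interferon regulatory factors (IRF), through ISRE motifs.

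The macrophage label was checked against marker lists. Csf1r was at 340 to 418 FPKM, Adgre1 at 137 to 189 and Cd68 at 1255 to 1814. Of the 8 entries of the macrophage list 7 passed the filter on low values described below, which left out Lyz2. Of these 7, 2 passed the size rule, a log2 ratio of at least 1 in size, at 20 U/ml against untreated. These were 1 higher and 1 lower, where 6.51% of all entries counted as higher and 2.94% as lower. The Fc receptor gene Fcgr1 was at 32.3, 53.5, 148 and 348 FPKM in the order untreated, 0.2, 2 and 20 U/ml, and the mannose receptor gene Mrc1 went from 88.5 FPKM untreated down to a log2 ratio of -1.84 at the highest dose. Lyz2, the lysozyme gene that macrophages express strongly, was listed at 0 in the first 3 groups and at 7449 FPKM in the last, so a 0 in the table can be a failed estimate. All 6 T and NK cell markers and 4 of 5 stromal and endothelial markers were under 1 FPKM in every group, as were 4 of 6 dendritic cell, 4 of 7 neutrophil and 1 of 6 osteoclast markers. The neutrophil marker S100a8 stepped up with dose, from 13.3 FPKM untreated to 25.6 at 2 U/ml and 30.4 at 20 U/ml (log2 ratio 1.14). It made up most of the list's sum of 17.0, 21.2, 29.1 and 35.1 FPKM, while Ly6g and Elane stayed under 0.22. S100a9 was at 2.32, 1.25, 1.46 and 2.68 FPKM and Ltf at 0.314, 0.516, 1.10 and 0.751. Mpo stayed at 0.778 to 0.970 FPKM and Camp at or under 0.0803. The part of neutrophils in the TRIM values was not tested. Among the genes used to check the treatment, Irf1, a transcription factor induced by IFNγ, was at 34.1, 89.1, 293 and 511 FPKM. All series of values are given in this order of groups. Sums of FPKM over all entries differed, at 769698, 1025970, 783701 and 904993.

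Of the 67 TRIM entries, 31 were under 1 FPKM in every group, and 7 of these were listed at 0 in all 4 groups. A filter on low values, which asked for an average of 1 FPKM or more across groups and no 0 in any of them, kept 34 of the 67, and 11580 of all entries. The remaining 2 reached 1 FPKM in 1 group and fell under the filter. Differences were computed as log2 ratios of FPKM + 1, a scale that understates differences of low genes, and a ratio of at least 1 in size (2-fold on this scale) made an entry count as higher or lower, called the size rule here.

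The 6 TRIM entries higher at 20 U/ml than in untreated cells were Trim30d, Trim30a, Trim21, Trim30c, Trim14 and Trim34b, all SPRY genes. SPRY genes made up 19 of the 34 entries that passed the filter, and the others among these 19 were not higher. Trim30d, Trim30c and Trim34b passed the filter only through their value at 20 U/ml, so the count of SPRY genes follows in part from the filter. Pml, a family member under another name and not on the SPRY list, was higher at 20 U/ml as well (1.56). Trim14 and Trim34b came close to the size rule and fell under it with upper-quartile scaling (0.93 and 0.96), which left 4. On chromosome 7 lie 5 of the 6, of which 4 stand in the row of genes around Trim5, from Trim6 (start 104218793) onwards. Trim21 stands apart from that row, next to Trim68, and the list named after the Trim5 cluster holds both places. Trim28, Trim3, Trim68 and the entry with Trim12c also lie on chromosome 7 and passed the filter, and none of them was higher. The promoters are shown first, because several genes of the row carry near-identical sequence. RefSeq promoter windows on GRCm38.p6, from 250 bases before the annotated start to 50 after it, matched 53 of the 69 symbols. They were searched for an ISRE core, GAAANNGAA on either strand, and for a GAS core, TTCNNNGAA, which reads the same on both strands. Below are the 250 bases before the outer start of Trim30a (window chr7:104465144-104465443, minus strand) and before the start of Trim30d (window chr7:104507800-104508099, minus strand), 5′ to 3′, with the ISRE core in capitals.
Trim30a: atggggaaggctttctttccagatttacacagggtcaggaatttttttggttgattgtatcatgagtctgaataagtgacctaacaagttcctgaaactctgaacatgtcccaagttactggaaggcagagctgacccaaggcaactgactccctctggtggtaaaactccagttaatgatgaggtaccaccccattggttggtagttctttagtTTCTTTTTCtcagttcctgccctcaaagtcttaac
Trim30d: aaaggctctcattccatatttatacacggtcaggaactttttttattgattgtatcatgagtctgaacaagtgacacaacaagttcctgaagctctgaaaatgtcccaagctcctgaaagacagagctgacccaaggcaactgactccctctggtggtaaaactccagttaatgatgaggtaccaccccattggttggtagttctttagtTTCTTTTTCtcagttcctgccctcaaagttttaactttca

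The core began 35 bases before the start of Trim30a and 40 before that of Trim30d. Lined up by this offset, the 2 promoters were identical at 226 of 245 bases, or 92.2%, and at 84 of 84 bases from 60 before the core to 15 after it. Trim21 held 2 overlapping cores on the forward strand, beginning 13 and 19 bases after its start, within the 15-base site GAAACTGAAAGTGAA (chr7:102565455-102565469, minus strand). Other cores before the start, with up to 15 bases to each side and the core in capitals, are shown to compare members of the cluster with Trim25 and Trim26.
Trim34b: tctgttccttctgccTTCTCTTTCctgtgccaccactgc
Trim12c: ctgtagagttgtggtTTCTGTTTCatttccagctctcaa
Trim5: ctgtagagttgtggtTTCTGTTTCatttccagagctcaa
Trim25: gcgccgcccctcctgTTCAGTTTC
Trim26: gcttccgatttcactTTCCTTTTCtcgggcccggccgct

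On GRCm38.p6 these stretches lie at chr7:104329245-104329283 (plus strand) for Trim34b, chr7:104353354-104353392 and chr7:104288131-104288169 (both minus) for Trim12c and Trim5, chr11:88999379-88999402 (plus) for Trim25 and chr17:36836978-36837016 (plus) for Trim26. The cores began 211, 28, 48, 9 and 153 bases before the start in that order, and Trim26 held a second core that overlaps the one shown, 159 bases before it. The stretches of Trim12c and Trim5 were identical at 37 of 39 bases. An ISRE core was present in 13 of 67 windows of TRIM genes (19.4%) and in 8.56% of all 32851 windows. Counted by gene, it was in 2638 of all 27025 genes with a window. Among the members higher at 20 U/ml it was in 4 of 5 genes with a window. It was in 4 of 21 among the other members passing the filter, and in 4 of 27 among those under it. Of the 5, Trim30d, Trim30c and Trim34b passed the filter only through their value at 20 U/ml, so this split follows in part from the filter. A GAS core was in 7 of 67 TRIM windows (10.4%) and in 8.30% of all windows. Trim30c, whose window held no ISRE core, held a GAS core 62 bases before its start. These matches describe letters and are not binding sites, and windows of duplicated genes are not separate observations.

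Trim30a (chromosome 7, 104409025 to 104465193, GRCm38), a mouse gene whose protein restrains NF-κB signalling from Toll-like receptors, was at 16.9, 23.1, 35.9 and 72.1 FPKM. Each dose was above the one before it. The log2 ratio was 1.04 at 2 U/ml and 2.03 at 20 U/ml. The neighbouring gene Trim30d (104470014 to 104507849) was at 0.221, 0.499, 1.31 and 9.82 FPKM. On the scale of FPKM + 1, most of that difference lay between the upper doses. Its ratio over that step was 2.23, against 0.99 for Trim30a. On the same scale the ratio of Trim30d to untreated was 3.15 at 20 U/ml, the highest of the family, and the untreated level behind it was low. With 0.1 added in place of 1, the ratio of Trim30d to untreated was 2.14 at 2 U/ml and 4.95 at 20 U/ml. How its difference divides over the doses thus depends on the scale. Trim30c (104382065 to 104400837) was at 0.304, 0.589, 0.919 and 2.27 FPKM, a ratio of 1.32 at 20 U/ml.

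Trim30b (104355382 to 104369884), at the other end of the Trim30 genes, stayed under the filter. Its values were 0.163, 0.175, 0.327 and 0.957 FPKM, again in order of dose. The pseudogene Trim30e-ps1 reached only 0.0051 FPKM. How far reads can be divided among copies was looked at by counting the 50-base words of each gene's longest protein-coding transcript (GENCODE M21) that also occur in a transcript of another gene. For Trim30a 6.53% of words were shared, for Trim30d 8.29%, for Trim30b 1.11% and for Trim30c 0.660%. For Trim30a the shared words were all in Trim30d.

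Trim34a and Trim34b, related to the capsid-binding TRIM34 of primates, shared more. Of the words of Trim34b 59.0% occurred in Trim34a, and of those of Trim34a 61.9% occurred in another gene, so the division of reads between the 2 is uncertain. Trim34b (104329471 to 104336909) was at 0.831, 0.893, 1.26 and 2.79 FPKM, with a ratio of 1.05 at 20 U/ml. Trim34a (104244457 to 104262234) was at 0.405, 0.426, 0.582 and 1.08 FPKM and fell under the filter. Both were highest at 20 U/ml and nearly level between untreated and 0.2 U/ml.

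**Figure D1:**
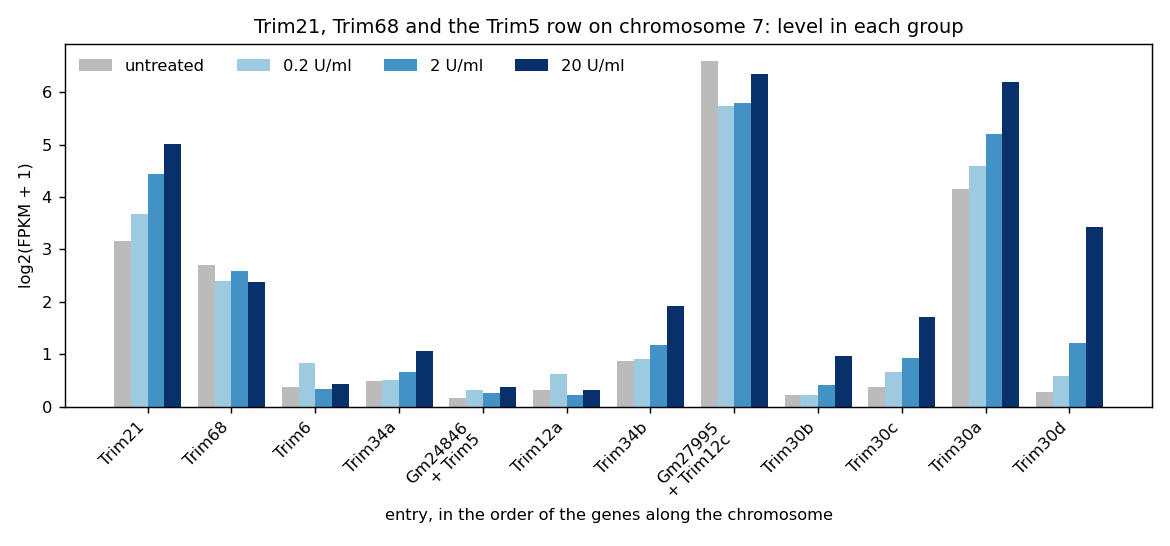
Level of Trim21, Trim68 and each entry of the row around Trim5 as log2(FPKM + 1), in the order of the genes along chromosome 7, with 1 bar per group (untreated, 0.2, 2 and 20 U/ml) and no error bars because there is 1 value per group. The 4 Trim30 entries, both Trim34 entries and Trim21 step up with dose, Trim68 does not, and the entry with Trim12c is highest in untreated cells.

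Not every gene of the cluster followed that pattern. Of its 12 entries 7 passed the filter, with 5 higher at 20 U/ml, 0 lower and a median ratio of 1.32, beside shares of 6.51% higher and 2.94% lower and a median of 0.01 over the whole table. Trim30d, Trim30c and Trim34b were under 1 FPKM in untreated cells and passed the filter through their higher doses, so this count and median follow in part from the filter. Trim68 (102677582 to 102687327), next to Trim21, was at 5.53, 4.27, 4.99 and 4.19 FPKM. Trim6 was at 0.302, 0.779, 0.268 and 0.355 FPKM and the merged entry of Trim5 and the small nuclear RNA Gm24846 at 0.129, 0.251, 0.194 and 0.296.

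The highest level in the cluster belonged to the merged entry of Trim12c (104338754 to 104353362), a close relative of Trim5, and Gm27995, a small nuclear RNA gene of 100 nt inside it. It was at 95.2, 52.1, 54.6 and 79.9 FPKM, lower at both smaller doses (ratios -0.86 and -0.79) and nearer to untreated at 20 U/ml (-0.25), never past the size rule. The level cannot be assigned to either gene of the entry. Its relative Trim12a was at 0.256, 0.548, 0.167 and 0.243 FPKM. Of the words of Trim12c 33.0% were shared with other genes, of Trim5 37.2% and of Trim12a 23.5%.

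Trim21 (chromosome 7, 102557921 to 102565486), the receptor that binds antibodies inside the cell and marks the bound particle for the proteasome, was at 7.89, 11.8, 20.7 and 31.2 FPKM. Its ratio was 1.29 at 2 U/ml and 1.86 at 20 U/ml. At 2 U/ml this was the highest of the family with a pseudocount of 1, and with one of 0.1 Trim30d (2.14) stood above Trim21 (1.38). Only 0.292% of its words were shared. Of 5 entries for genes it works with, the antibody receptor pathway, 0 passed the size rule at any dose against untreated, in either direction. By the same rule 6.51% of all entries counted as higher at 20 U/ml and 2.94% as lower. A list of 5 is too short to be set apart from these shares. The segregase gene Vcp was at 115 FPKM at 20 U/ml against 105 untreated, Psmd14 of the proteasome at 109 against 93.2, and the conjugating enzyme genes Ube2n at 27.0 against 22.2 and Ube2w at 20.6 against 19.5.

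Trim14 (chromosome 4, 46493781 to 46536141), a SPRY member without a RING domain that acts as an adaptor in antiviral signalling at MAVS, was at 10.6, 9.15, 15.7 and 23.3 FPKM. Unlike the other 5 it was not above untreated at 0.2 U/ml. Its ratio of 1.07 at 20 U/ml was close to the size rule, as was that of Trim34b. Just outside came Trim26 (0.62), whose protein acts on IRF3 in the nucleus, at 21.2, 27.1, 27.2 and 33.0 FPKM.

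**Figure D2:**
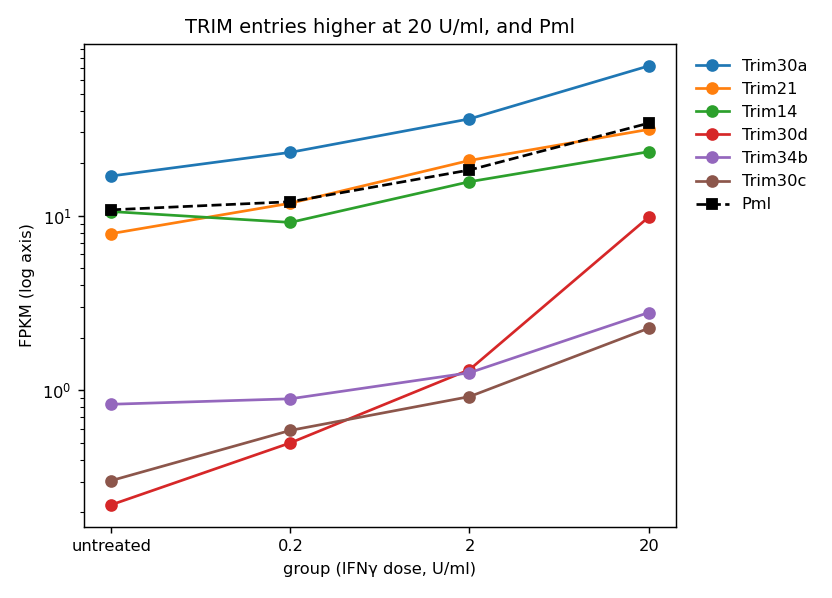
FPKM on a log axis in the 4 groups for the 6 TRIM entries higher at 20 U/ml, with Pml (dashed) for comparison; each point is the 1 deposited value of a group. Trim30d goes from the lowest line, 0.221 FPKM, to 9.82, and Trim14 is the only one of the 6 that dips at 0.2 U/ml.

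Over the 34 TRIM entries that passed the filter, 6 were higher (17.6%) and 0 lower at 20 U/ml against untreated. Among all 11580 entries, 6.51% were higher and 2.94% lower. Trim30d, Trim30c and Trim34b, among these 6, passed the filter only through their value at 20 U/ml, the group where they are high. With the filter computed without that value, an alternative chosen after seeing the data, 3 of 31 TRIM entries were higher, beside 6.01% of all entries. The median ratio of the 34 was 0.10, and that of all entries 0.01. At 2 U/ml 2 of the 34 were higher, Trim21 and Trim30a (5.88%), and 0 lower, with 2.50% of all entries higher and 0.760% lower. At 0.2 U/ml 0 of the 34 were higher or lower, where 5.23% of all entries were higher and 0.328% lower. These 3 comparisons share the untreated values.

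Between doses, Trim2 was the only member lower at 2 than at 0.2 U/ml (-1.06), with 6.26% of all entries lower, and 0 were higher, with 1.51% of all. Trim2 passed the filter only through its value at 0.2 U/ml, the group where it is high. Trim30d was the only member higher at 20 than at 2 U/ml, with 2.90% of all entries higher, and 0 were lower, with 1.11%. Values stepped up at every dose in 6 of the 34 entries, and in 9.28% of all entries. These were Trim30a, Trim30c, Trim30d, Trim34b, Trim21 and Trim26. Of these, Trim30c, Trim30d and Trim34b passed the filter only through their value at 20 U/ml. The count of 6, and the call of Trim30d from 2 to 20 U/ml, follow in part from that. Values stepped down at every dose in 3, and in 6.54% of all. These were the merged entry of Trim47 and Trim65, the merged entry of Trim16 and Fbxw10, and Trim45.

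**Figure D3:**
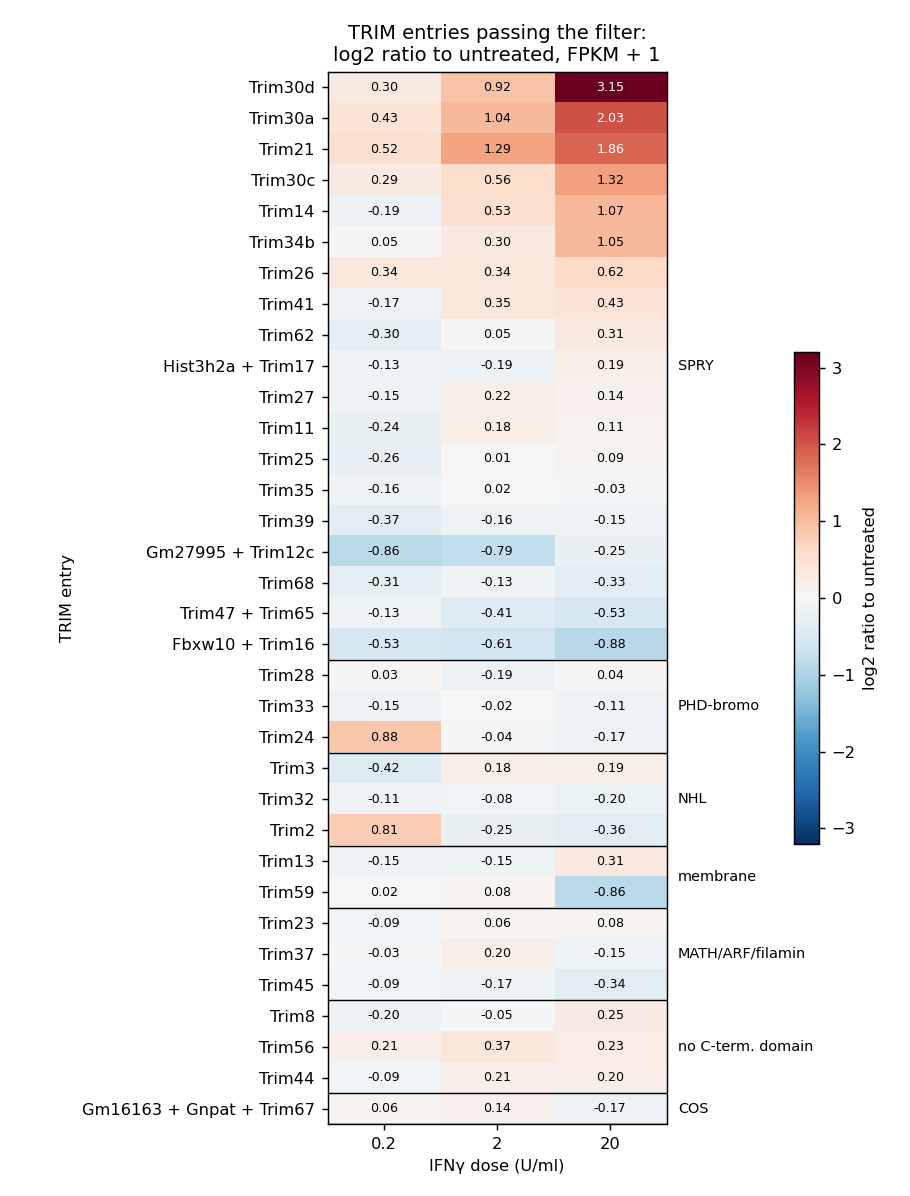
Log2 ratio of FPKM + 1 to untreated (colour and number in each cell) at 0.2, 2 and 20 U/ml for the 34 TRIM entries that passed the filter, grouped by C-terminal domain, merged entries placed by their first Trim symbol. The ratios of at least 1 in size, from 1.04 to 3.15, are all in the SPRY group, and none is at 0.2 U/ml. The SPRY group holds 19 of the 34 entries, and most of these 19 stay under 1 in size. Trim30d, Trim30c and Trim34b passed the filter only through their value at 20 U/ml. Family members under other names, such as Pml, are not shown.

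Trim28 was the most abundant member, at 208, 212, 183 and 214 FPKM. It encodes the corepressor KAP1, which silences endogenous retroviruses together with zinc finger proteins, and it made up between 26.2% and 31.9% of the summed FPKM of the family. Its ratio to untreated stayed between -0.19 and 0.04. Of the 10 entries of its corepressor list, 1 was higher at 20 U/ml, where 6.51% of all entries were: Morc3, a nuclear ATPase that also silences retroviral elements, at 10.7, 10.0, 14.1 and 23.6 FPKM (1.08). The other ratios largest in size were those of Atf7ip (0.64), Setdb1 (0.40), the histone methyltransferase of the complex, and Hdac1 (0.30).

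The other PHD-bromodomain genes were lower in level. Trim33, a regulator of SMAD4, was at 7.12, 6.32, 7.03 and 6.54 FPKM. Trim24, a cofactor of nuclear receptors, was at 5.29, 10.6, 5.14 and 4.58, and Trim66 stayed at or under 0.0713 FPKM.

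Next in untreated level after Trim28 and the entry with Trim12c was the merged entry of Trim47 and Trim65, of which Trim65 marks the RNA sensor MDA5 with ubiquitin. It was at 67.1, 61.3, 50.1 and 46.3 FPKM, a ratio of -0.53 at 20 U/ml. Trim8, a modulator of NF-κB and of SOCS1, was at 34.5, 29.9, 33.2 and 41.3 FPKM. The merged entry of Trim67, Gnpat and Gm16163 was at 32.3, 33.7, 35.6 and 28.6 FPKM. Trim67 is known from neurons and Gnpat is a widely expressed gene of ether lipid synthesis, and the entry does not say which of them the reads came from. None of these 3 passed the size rule.

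Among TRIM genes with known parts in nucleic acid sensing, 9 of the 10 listed passed the filter, and 2 of the 9, Trim21 and Trim14, were higher at 20 U/ml, beside 6.51% of all entries. Trim25, which marks the RNA sensor RIG-I with ubiquitin, was at 22.3, 18.4, 22.5 and 23.8 FPKM, with ratios between -0.26 and 0.09, and its promoter window held an ISRE core 9 bases before the start. Trim27 was at 31.1, 27.9, 36.5 and 34.5 FPKM. Trim56, which acts on the DNA-sensing pathway of STING, was at 2.95, 3.57, 4.11 and 3.63, and Trim23, which carries an ARF-like GTPase domain, at 3.74, 3.45, 3.96 and 3.99. Trim38 stayed under the filter, at no more than 0.0300 FPKM.

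The sensors and factors these proteins act on were listed as well. In the RIG-I and MAVS list 4 of 11 entries were higher at 20 U/ml, 0 lower, with a median ratio of 0.71, beside the shares over the whole table of 6.51% and 2.94% and its median of 0.01. Irf7 was at 17.2 against 422 FPKM, the sensor regulator Dhx58 at 14.2 against 112, Ifih1 (MDA5) at 5.05 against 32.3 and Ddx58 (RIG-I) at 14.6 against 45.3. In the DNA-sensing list 1 of 5 was higher, beside the same 6.51%: Tmem173 (STING), at 13.9, 15.0, 27.2 and 55.2 FPKM. It was followed by Mb21d1 (cGAS) with a ratio of 0.52, Tbk1 with 0.51 and Ddx41 with 0.29. Of 12 ubiquitin-conjugating enzyme entries, which supply TRIM ligases with ubiquitin, 1 was higher, a share near the 6.51% of all entries. This was Ube2l6, the enzyme for the ubiquitin-like ISG15, at 76.3, 102, 156 and 275 FPKM. Ube2e1 (0.61), Ube2e2 (0.58) and Ube2k (0.46) came next.

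Some family members carry other names. Pml (TRIM19), which builds nuclear bodies, was at 10.8, 12.0, 18.3 and 33.9 FPKM, a ratio of 1.56 at 20 U/ml and 0.71 at 2 U/ml. Its values lay close to those of Trim21 at the upper doses. The other 3, Mid1, Mid2 and Mefv, were under 1 FPKM in every group, with Mid1 at 0.689 FPKM in untreated cells and 0.424 at 20 U/ml.

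**Figure D4:**
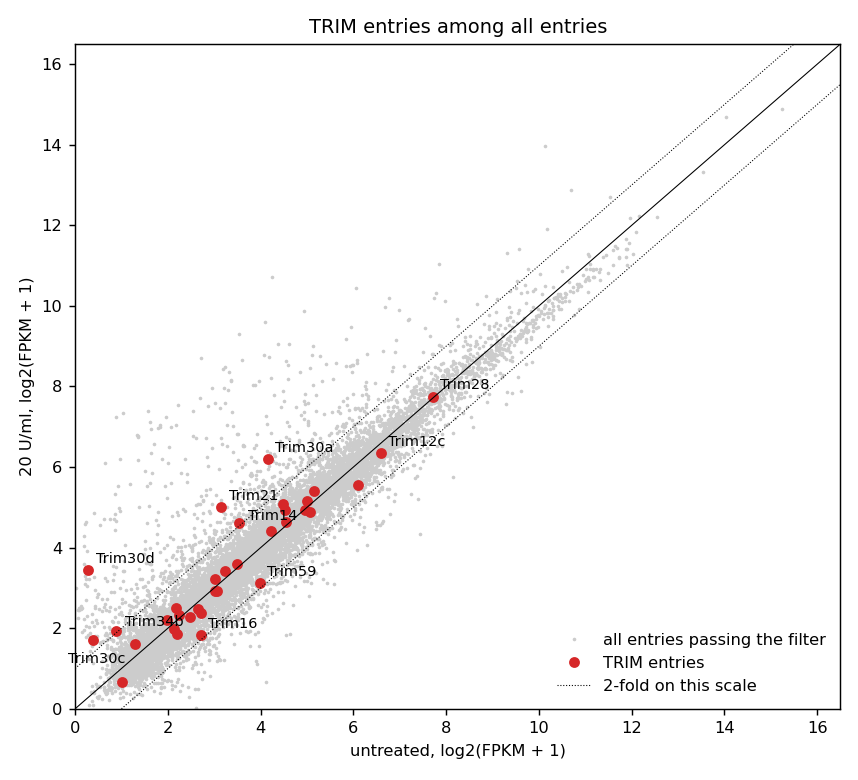
Level at 20 U/ml against level in untreated cells, both as log2(FPKM + 1), for all 11580 entries passing the filter (grey) and the 34 TRIM entries (red); the solid line is equality and the dotted lines are 2-fold on this scale. The 6 higher TRIM entries lie above the upper dotted line, and Trim28 lies on the line of equality.

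Among the lower values at 20 U/ml, 2 came near the size rule, and both are named after their values were seen. Trim59, a membrane-anchored member, was at 14.7, 14.9, 15.6 and 7.70 FPKM, level up to 2 U/ml and with a ratio of -0.86 at 20 U/ml. The other membrane-anchored member, Trim13 of the endoplasmic reticulum, was at 3.54, 3.08, 3.09 and 4.63. The merged entry of Trim16, known for damaged-endosome responses through galectins, and Fbxw10 was at 5.55, 3.53, 3.31 and 2.55 FPKM (-0.88 at 20 U/ml).

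The NHL-repeat genes, none past the size rule against untreated, differed in where they peaked. Trim3 was at 17.8, 13.1, 20.2 and 20.4 FPKM, Trim32, mutated in a human muscular dystrophy, at 4.54, 4.12, 4.26 and 3.82, and Trim2, known from axons, at 1.03, 2.56, 0.708 and 0.581. Trim71, a gene of early embryos, stayed under 0.01 FPKM. Trim37, which carries a MATH domain and serves peroxisome and centrosome biology, was at 7.38, 7.19, 8.63 and 6.57 FPKM, and Trim45, with a filamin-type domain, at 3.57, 3.28, 3.06 and 2.62. Trim44, which lacks a RING domain, was at 7.09, 6.58, 8.35 and 8.31.

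The SPRY genes not yet described stayed within a ratio of 0.5 in size at all 3 doses. Trim35 was at 26.7 to 30.5 FPKM, Trim41 at 19.4 to 29.7, Trim11 at 8.44 to 11.7, Trim39 at 2.41 to 3.40 and Trim62 at 0.991 to 2.05. The merged entry of Trim17 and the histone gene Hist3h2a was at 7.16 to 9.62. In all, 21 of the 34 entries stayed within 0.5 at every dose.

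Peaks at the lowest dose were not more frequent among the members that passed the filter than over the whole table. At 0.2 U/ml 5 entries with at least 0.5 FPKM were at least 1.5-fold above each other group, a rule chosen after the values were seen: Trim24, Trim2, Trim36, Trim6 and Trim12a. Trim36 was at 0.719, 1.34, 0.695 and 0.490 FPKM. Of the 34 that passed the filter 2 did so, Trim24 and Trim2, and 9.32% of all entries did. Trim2 passed the filter only through its value at 0.2 U/ml, so this count follows in part from the filter. At this dose 22 of 34 TRIM ratios to untreated were below 0, with a median of -0.12, where 50.3% of all ratios were above 0 and their median was 0.0021. Upper-quartile scaling alone moved the median of all ratios at this dose by -0.10. That scaling applies the same factor to every entry of a group, so it shifts TRIM and other ratios in the same direction. Of the B cell markers, Ms4a1 was at 0.242, 1.09, 0.299 and 0.231 FPKM, Cd79a was at or under 0.0724 and Pax5 was at 0 in every group. These 3 summed to 0.270, 1.16, 0.306 and 0.249 FPKM. Of the 6 dendritic cell markers, which summed to 1.95, 4.03, 7.92 and 48.4 FPKM, Siglech was at 0.177, 1.97, 0.258 and 0.101, and the merged entry of Clec9a and Clec1b made up 47.1 FPKM of the last sum. Xcr1 was at 0.142, 0.460, 0.238 and 0.848 FPKM and Zbtb46 at 0.312, 0.169, 0.235 and 0.265. Flt3 was at or under 0.0255 and Ccr7 at or under 0.0364 FPKM. The part of these cells in the values at 0.2 U/ml was not tested. In bulk samples, fewer cells of a type and less RNA per cell cannot be told apart.

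The 31 entries under 1 FPKM in every group included genes known from other tissues. A value of 0 need not mean a low level, as the values of Lyz2 show. The 7 listed at 0 in all groups were Trim31, Trim40, Trim42, Trim50, Trim54, Trim63 and Trim80, of which Trim54 and Trim63 are muscle genes. The other muscle genes Trim55 and Trim72 reached 0.0099 and 0.335 FPKM. Trim58 and Trim10, known from red cell precursors, reached 0.0043 and 0.0103 FPKM, and the neuronal genes Trim9 and Trim46 reached 0.0125 and 0.819. The 3 copies Trim43a, Trim43b and Trim43c, active in early embryos, were at or under 0.0285. Trim7 came closest to 1 FPKM, at 0.959, 0.981, 0.655 and 0.674. Trim29, Trim52, Trim69, Trim15, Trim75 and the merged entry of Trim60 and Trim61 made up the rest with genes already named, all under 0.4 FPKM.

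The second file is the authors' deposited table of a Cuffdiff test between treated and untreated cells, in which no dose is named. Of the entries in the authors' deposited table, 37 of the 67 TRIM entries were tested, 21 with a log2 fold change above 0 and 12 below 0 at a q-value under 0.05, where a value above 0 is higher in the cells its header names treated. Over all entries tested in the authors' deposited table, 35.1% were above 0 and 33.8% below by that rule. With the names of the 2 groups exchanged, these counts and shares would trade places. Irf1, which stepped up with dose, had a log2 fold change of 0.38 (q = 0.0747) in the authors' deposited table. Of the 6 entries higher at 20 U/ml, Trim30c and Trim34b were not tested in the authors' deposited table. For all the others of the 6 the sign was opposite to that of the ratio at 20 U/ml. The authors' deposited table gave log2 fold changes of -0.83 for Trim30a, -1.66 for Trim30d, -2.65 for Trim21 (each q = 9.95e-05) and -1.94 for Trim14 (q = 0.000916). For Trim25 the authors' deposited table gave 3.56 (q = 9.95e-05), against ratios between -0.26 and 0.09 at the 3 doses. For some entries not past the size rule the sign was the same. Examples were Trim26, at 0.57 in the authors' deposited table against a ratio of 0.62 at 20 U/ml, Trim13 (3.22 against 0.31), Trim68 (-2.17 against -0.33) and Trim37 (-2.89 against -0.15). The sources used here do not tell which samples entered that comparison.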

How the data were processed

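RNA from 12 libraries of macrophages in 4 groups was measured. TopHat2 2.1.1, Cufflinks 2.1.1 and Cuffdiff 2.1.1 and the build mm10 are named by the submitters' processing notes. The authors deposited FPKM values, 1 per entry and group, per the file headers. The untreated column names no unit and was read as FPKM from its range. The sources used here do not tell whether a value pools the 3 libraries. The deposited comparison gives log2 fold changes and q-values per gene, per the file headers, and its 2 columns of values were not used.

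Ratios used log2(FPKM + 1), so the pseudocount was 1. Entries with a mean under 1 FPKM or with a 0 in any group were left out. The planned fit with limma needs values per library and was not possible, so a size rule replaced it. Members and lists were chosen with earlier results of these data known. Named were the TRIM entries past the size rule, the 5 highest in untreated cells, the family members under other names and up to 4 entries per partner list; some list genes are not reported here, and members outside this rule are given to account for all. Ratios and the motif search were checked on simulated data. Positions, transcripts and shared 50-base words came from GENCODE M21 (GRCm38, the assembly of mm10), promoters from RefSeq. Python 3.11.15, numpy 2.4.6, pandas 2.3.3 and matplotlib 3.10.9 were used.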

Additional observations from a re-analysis of the deposited data

How the results depend on the processing

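Counts are of TRIM entries. At 20 U/ml against untreated the 6 higher were 4 under upper-quartile scaling, where Trim14 and Trim34b lost their calls, and 3 with a mean of at least 5 FPKM, which kept 21 entries. They were also 3 with the filter computed without the 20 U/ml value, chosen after seeing the data, which kept 31. The count of lower entries there was 1 with a pseudocount of 0.1 or 0.01 and 2 with a size rule of 1.5-fold, against 0. At 2 U/ml against untreated the 2 higher were 4 with a pseudocount of 0.1 or 0.01 and 1 under upper-quartile scaling or quantile normalization, and lower entries were 2 at 1.5-fold. At 0.2 U/ml against untreated the higher count was 1 with a pseudocount of 0.1, 2 with 0.01 and 2 at 1.5-fold, and the lower count 1 under quantile normalization and 1 at 1.5-fold.

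From 0.2 to 2 U/ml the higher count was 1 with a pseudocount of 0.1 or 0.01 and 5 at 1.5-fold. The lower count was 2 with those pseudocounts and at 1.5-fold. It was 0 with the 5 FPKM filter, under quantile normalization and with the filter computed without the 0.2 U/ml value, an alternative chosen after seeing the data. From 2 to 20 U/ml the higher count was 4 with a pseudocount of 0.1 or 0.01 and at 1.5-fold, and 0 with the stricter filter of 5 FPKM or the filter without the 20 U/ml value. The lower count was 1 with those pseudocounts, under upper-quartile scaling and at 1.5-fold.

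Trim14 at 20 U/ml was at 0.93 under upper-quartile scaling and 0.95 under quantile normalization, and Trim34b at 0.96 under the former. Trim30a at 2 U/ml was at 0.98 and 0.99 under these scalings. Trim30d at 2 U/ml was at 2.14 with a pseudocount of 0.1. Upper-quartile scaling shifted the median of all ratios by -0.13 at 20 U/ml and by -0.10 at 0.2 U/ml. No paired analysis was possible because the table has 1 value per group, and leaving out a library was not possible for the same reason. The depth is unknown.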
